A study of Danio rerio with 12 samples.

Results

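Cytosolic ribosomal protein genes were followed through whole zebrafish embryos at the tailbud stage in which tif1g (the gene trim33, a transcriptional cofactor needed for red cell formation in zebrafish) was knocked down, pyrimidine synthesis was inhibited, or both. The genes were chosen by name: symbols that begin with rpl or rps and a digit, plus those of the acidic stalk proteins, without the S6 kinases and rps19bp1. This gave 83 of the 32520 genes counted, 47 of the large and 36 of the small subunit, and all 83 passed the filter on low counts. Of these, 80 had a mean of at least 100 counts a library. The other 3 had few counts, 6 to 30 a library, rpl26 with 14 to 29 among them. Where a pair of genes shares a symbol, as for rpl5 and rps26, the Ensembl identifier is given.

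All embryos were of the wild-type strain TU and received 1 ng of morpholino, an antisense oligonucleotide, either the standard control oligo or one described as blocking the start codon of tif1g. From 5.3 to 10 hours after fertilisation they were kept in 7 µM leflunomide, which inhibits the pyrimidine synthesis enzyme Dhodh, or in DMSO, the solvent. Each of the 4 groups (control DMSO, control leflunomide, tif1g DMSO and tif1g leflunomide) had 3 libraries of 109 pooled embryos, made from RNA depleted of ribosomal RNA. Total counts ran from 27574593 to 32088082 a library. The trim33 transcript stood at 74.9 ± 5.03 CPM (SD, n = 3) in DMSO and 81.5 ± 3.64 in leflunomide with the control morpholino, and 380 ± 12.5 and 422 ± 8.88 with the tif1g morpholino. A morpholino that blocks translation does not need to lower its transcript, so this level does not measure the knockdown.

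Ribosomal proteins join ribosomal RNA in the nucleolus in nearly equal numbers, and cells make them in step with growth. Their mRNAs begin with a tract of pyrimidines (5′TOP mRNAs), through which the growth kinase mTOR and the protein Larp1 control their translation and stability in mammals. Loss of 1 copy of single ribosomal protein genes causes Diamond-Blackfan anaemia in people, in which red cell precursors fail, and ribosomal proteins that are left unassembled can stabilise p53.

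In embryos with neither the tif1g morpholino nor leflunomide, ribosomal protein genes held more of the counts than in any other group. They took 3.88%, 3.38% and 3.57% of all counts in the libraries of control DMSO, a mean of 3.61% ± 0.252 (SD, n = 3). Leflunomide with the control morpholino gave 3.27% ± 0.00893, and tif1g embryos held 3.18% ± 0.128 in DMSO and 3.26% ± 0.105 in leflunomide. All 9 libraries of these 3 groups lay below the lowest control DMSO library, and the 3 groups overlapped one another. Replicate 1 of control DMSO was the highest of the 12 libraries. In whole embryos, fewer cells of a type and less RNA per cell cannot be told apart.

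In both subunits the mean share was highest in control DMSO. Large subunit genes took 2.18% ± 0.156 (SD, n = 3) of the counts of control embryos in DMSO and 1.98% ± 0.006 in leflunomide, and 1.90% ± 0.0777 and 1.94% ± 0.0594 of those of tif1g embryos. Small subunit genes took 1.43% ± 0.0963, 1.29% ± 0.00309, 1.28% ± 0.0506 and 1.31% ± 0.0457 in the same order. For the large subunit all 9 other libraries lay below the lowest control DMSO library. For the small subunit replicate 2 of tif1g leflunomide, at 1.35%, lay above replicate 2 of control DMSO, at 1.34%. The ratio of large to small subunit counts was 1.53 ± 0.00596 in control DMSO and 1.53 ± 0.00188 in control leflunomide, against 1.49 ± 0.00656 in tif1g DMSO and 1.48 ± 0.00929 in tif1g leflunomide. All 6 tif1g libraries lay below all 6 control libraries. Without rpl3, a left-out gene chosen after its values were seen, the ratios were 1.44, 1.44, 1.43 and 1.42, and the tif1g and control libraries overlapped.

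**Figure D1:**
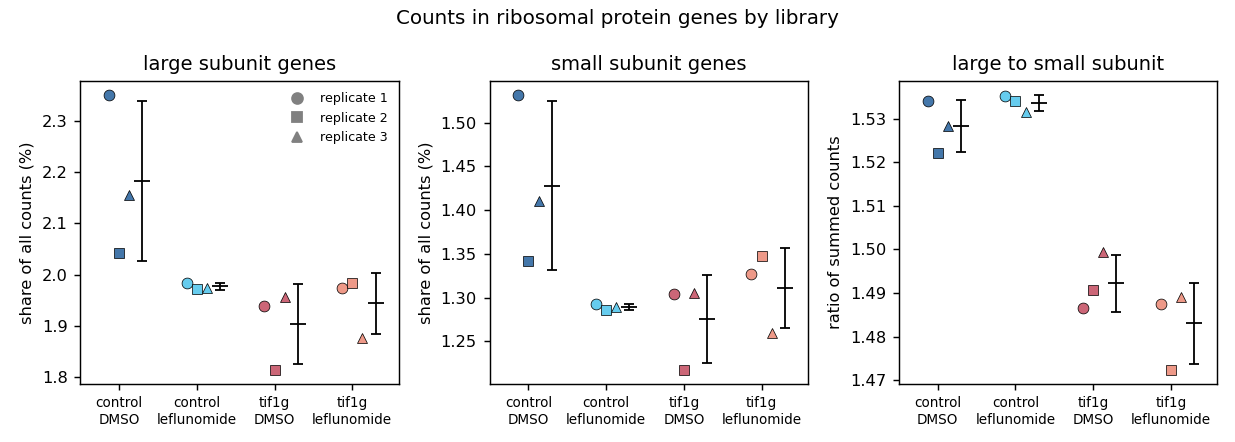
Share of all counts (%) in large and small subunit genes, and the ratio of their summed counts, in each of 12 libraries; points are replicates 1 to 3, bars the mean ± SD of 3 libraries, and the axes do not start at 0. Control DMSO is highest on average in both shares, and the 6 tif1g libraries have the lower ratios, 1.48 and 1.49 on average against 1.53.

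Leflunomide lowered ribosomal protein transcripts of both subunits in control embryos. Of the 83 genes, 75 fell and none rose (edgeR's quasi-likelihood test, adjusted p under 0.05 with Benjamini-Hochberg adjustment over 21400 genes), where 13.1% of all genes tested fell and 8.87% rose. The called changes ran from -0.62 to -0.15 on the log2 scale, and the median over the 83 genes was -0.29 against 0.02 over all genes tested. The fall was shared by 42 of 47 large and 33 of 36 small subunit genes. In 77 genes the 3 leflunomide libraries lay below the 3 DMSO libraries, which held for 19.2% of all genes tested. The 8 genes that were not called were rpl22l1, rpl9, rpl29, rplp2, rps27.2 and the 3 genes with few counts.

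The number of genes called rested on how the libraries were scaled. With library totals in place of TMM factors (factors that set the bulk of genes level between libraries), 30 genes fell, against 5.7% of all genes tested, and the median of all genes moved from 0.02 to 0.16. The median of the 83 genes less that of all genes was -0.31 under both. Such factors move all genes of a library alike, so this difference could hardly change and is no check of the fall. Without replicate 1 of all groups, 27 genes fell, a count for which the share of all genes tested is not given.

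The knockdown in DMSO also lowered the set, with more spread between genes. Of the 83, 58 fell and 1 rose (edgeR's quasi-likelihood test), where 17.2% of all genes tested fell and 15.6% rose. The median was -0.22 against 0.00 over all genes, and the called falls ran from -0.76 to -0.13. Large subunit genes fell in 36 of 47 cases and small subunit genes in 22 of 36. The riser was rps27l. The tif1g libraries lay below the control libraries in 54 genes, which held for 22.0% of all genes tested. Without replicate 1 of control DMSO 38 genes fell, without replicate 2 of tif1g DMSO 37, and without replicate 1 of all groups 27. The shares of all genes tested in these fits are not given, so a loss of calls in general cannot be told from a weaker fall of the set. The knockdown in DMSO and leflunomide in control embryos share the control DMSO libraries, so their falls are not independent of each other.

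In leflunomide the knockdown changed few genes of the set. Of the 83, 6 fell and 8 rose, or 7.23% and 9.64%, where 11.8% of all genes tested fell and 12% rose, so neither share exceeded the background. The median was 0.03 against 0.01 over all genes. The fallers were rpl3, rpl22l1, rps9, rpl10a, rpl13a and rps27.1, and each also fell in the knockdown in DMSO, which shares no library with this comparison. The risers included rpl30, rpl7l1, rps15, rps21, rps25, rps27l and the rps26 gene ENSDARG00000030408. With the replicate number as a block, 9 fell and 18 rose, against 16.7% and 17.0% of all genes tested. The number of risers was 3 without replicate 2 of tif1g leflunomide and 15 without replicate 1 of control DMSO, the extremes when 1 library was left out. The shares of all genes in those fits are not given.

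Leflunomide in tif1g embryos changed 1 of the 83 genes, rpl7l1, where 0.425% of all genes tested fell and 0.192% rose. The median was -0.01 against 0.01. With the block, rps27l also rose (0.28 ± 0.11 and adjusted p = 0.235 without the block, 0.0144 with it, edgeR), where 2.7% of all genes tested rose. Set side by side, the log2 medians for leflunomide were thus -0.29 in control and -0.01 in tif1g embryos. The difference between them, the interaction, passed for 0 of the 83 genes and for 0.0% of all genes tested (edgeR's quasi-likelihood test), although 74 of the 83 had an unadjusted p under 0.05, as did 12% of all genes tested, and the median was 0.28. DESeq2 called 6, all higher, and 0.425% of all genes as higher. With the replicate number as a block 67 passed, all higher, where 3.37% of all genes were called higher. The adjusted p ran from 0.000687 to 0.0497 for these 67.

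**Figure D2:**
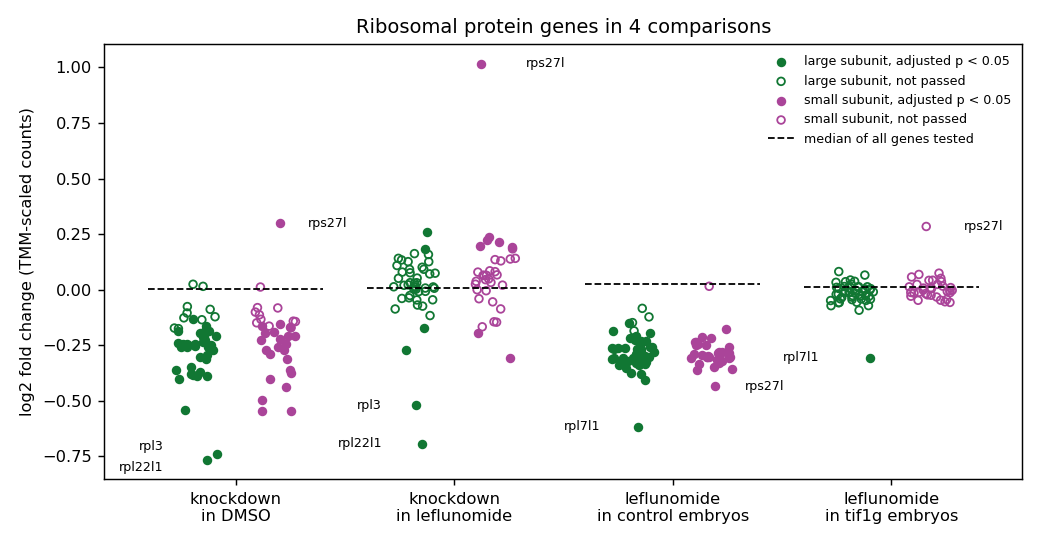
Log2 fold changes of 80 ribosomal protein genes (3 with few counts are left out) in 4 comparisons of 3 against 3 libraries; filled points passed at adjusted p under 0.05, and dashed lines are the median of all genes tested. The set lies below the dashed line for the knockdown in DMSO and for leflunomide in control embryos, with medians of -0.22 and -0.29, and around it in the other comparisons.

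Single genes of known roles are given next. The transcript of rps19, the gene most often mutated in Diamond-Blackfan anaemia, stood at 350, 299 and 313 CPM in DMSO and 265, 252 and 265 in leflunomide with the control morpholino. With the tif1g morpholino it stood at 262, 252 and 273 in DMSO and 270, 272 and 253 in leflunomide. Every control DMSO library exceeded every other library, and the other groups overlapped. It fell with leflunomide in control embryos by 0.30 ± 0.06 (SE) on the log2 scale (adjusted p = 0.00138, edgeR) and with the knockdown in DMSO by 0.29 ± 0.06 (adjusted p = 0.000977). In tif1g embryos leflunomide gave 0.02 ± 0.06 (adjusted p = 0.949).

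Rpl5 and Rpl11 carry the 5S RNA and, when unassembled, bind the p53 ligase Mdm2 in mammals. The rpl11 transcript was at 600, 486 and 541 CPM in DMSO and 436, 405 and 445 in leflunomide with the control morpholino. With the tif1g morpholino it stood at 485, 444 and 503 in DMSO and 485, 472 and 483 in leflunomide. The control DMSO and control leflunomide libraries did not overlap. It fell with leflunomide in control embryos by 0.34 ± 0.07 (adjusted p = 0.00129, edgeR) and in the knockdown in DMSO by 0.18 ± 0.07 (adjusted p = 0.0404). The call for the knockdown in DMSO was lost in 11 of the 22 other settings tried. In leflunomide the knockdown gave 0.16 ± 0.07 (adjusted p = 0.0868), which passed with the block (adjusted p = 0.0051). Of the rpl5 pair, ENSDARG00000015862 fell by 0.31 ± 0.06 with leflunomide in control embryos (adjusted p = 0.000522) and ENSDARG00000020197 by 0.21 ± 0.06 (adjusted p = 0.0139). The call of ENSDARG00000020197 was lost in 6 of the 22 other settings.

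The stalk protein gene rplp0, whose product anchors the acidic proteins that recruit elongation factors, stood at 1851, 1570 and 1583 CPM in DMSO and 1538, 1470 and 1384 in leflunomide with the control morpholino. With the tif1g morpholino it stood at 1500, 1406 and 1422 in DMSO and 1495, 1487 and 1389 in leflunomide. Control DMSO again lay above the rest. It fell by 0.19 ± 0.06 with leflunomide in control embryos (adjusted p = 0.0334, edgeR) and by 0.21 ± 0.06 in the knockdown in DMSO (adjusted p = 0.0124). These calls were lost in 9 and 5 of the 22 other settings tried. Of the small subunit, rps6, whose product the S6 kinases phosphorylate, fell by 0.30 ± 0.06 with leflunomide in control embryos (adjusted p = 0.00223), and in the knockdown in DMSO gave -0.15 ± 0.06 (adjusted p = 0.0823, 0.014 with the block).

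A few genes moved apart from the rest in the knockdown. One was rpl3, a core large subunit protein near the peptidyl transferase center. Its transcript stood at 1452, 1246 and 1303 CPM in DMSO and 1103, 1071 and 1162 in leflunomide with the control morpholino. With the tif1g morpholino it stood at 792, 747 and 854 in DMSO and 774, 778 and 773 in leflunomide. All 6 tif1g libraries lay below all 6 control libraries. It fell by 0.74 ± 0.06 in DMSO (adjusted p = 3.62e-08, edgeR's quasi-likelihood test), or by 40.2%, and by 0.52 ± 0.06 in leflunomide (adjusted p = 3.52e-06). As a share of all ribosomal protein counts, rpl3 took 3.49% and 3.52% in the control groups and 2.49% and 2.44% in the tif1g groups.

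The rpl22l1 transcript, from the paralog of rpl22 that has an opposing role in blood stem cell emergence in zebrafish, stood at 86.6, 74.1 and 80.2 CPM in control DMSO and 72.8, 75.7 and 78.8 in control leflunomide. It was 47.1, 45.1 and 49.6 in tif1g DMSO and 45.4, 47.9 and 47.2 in tif1g leflunomide. The tif1g and control libraries did not overlap, and leflunomide left the level within the spread of the libraries in both kinds of embryo. It fell by 0.76 ± 0.06 in DMSO (adjusted p = 7.08e-08, edgeR) and by 0.69 ± 0.06 in leflunomide (adjusted p = 3.08e-07). In contrast to rpl3, rpl22l1 was among the 8 genes not called with leflunomide in control embryos (adjusted p = 0.39).

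The genes rps9, which encodes a small subunit protein that bears on decoding accuracy, and rpl10a, a protein of the L1 stalk, also fell in both. They stood at 752 and 800 CPM in control DMSO on average, and at 515 and 549 in tif1g DMSO. The falls in DMSO were 0.54 ± 0.06 each (adjusted p = 1.77e-06 for rps9 and 6.79e-07 for rpl10a, edgeR), and in leflunomide 0.31 ± 0.06 and 0.27 ± 0.06 (adjusted p = 0.000959 and 0.0014).

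The riser, rps27l, is a paralog of rps27 that p53 induces in human cells. Its transcript stood at 38.7, 30.8 and 34.5 CPM in DMSO and 26.1, 25.6 and 25.2 in leflunomide with the control morpholino. With the tif1g morpholino it stood at 48.0, 35.3 and 44.6 in DMSO and 56.3, 53.2 and 46.2 in leflunomide. The tif1g and control groups overlapped in DMSO and did not in leflunomide. The rise was 1.02 ± 0.11 in leflunomide (adjusted p = 4.35e-06, edgeR), or 2.02-fold, and 0.30 ± 0.11 in DMSO (adjusted p = 0.0429). The call in DMSO was lost in 12 of the 22 other settings tried, among them leaving out replicate 2 or 3 of control DMSO or replicate 1 or 3 of tif1g DMSO. Within each replicate number rps27l was higher in tif1g DMSO than in control DMSO, and with the block the adjusted p was 0.00205. With leflunomide in control embryos rps27l fell by 0.43 ± 0.11 (adjusted p = 0.00931), a call lost in 3 of the 22 other settings.

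**Figure D3:**
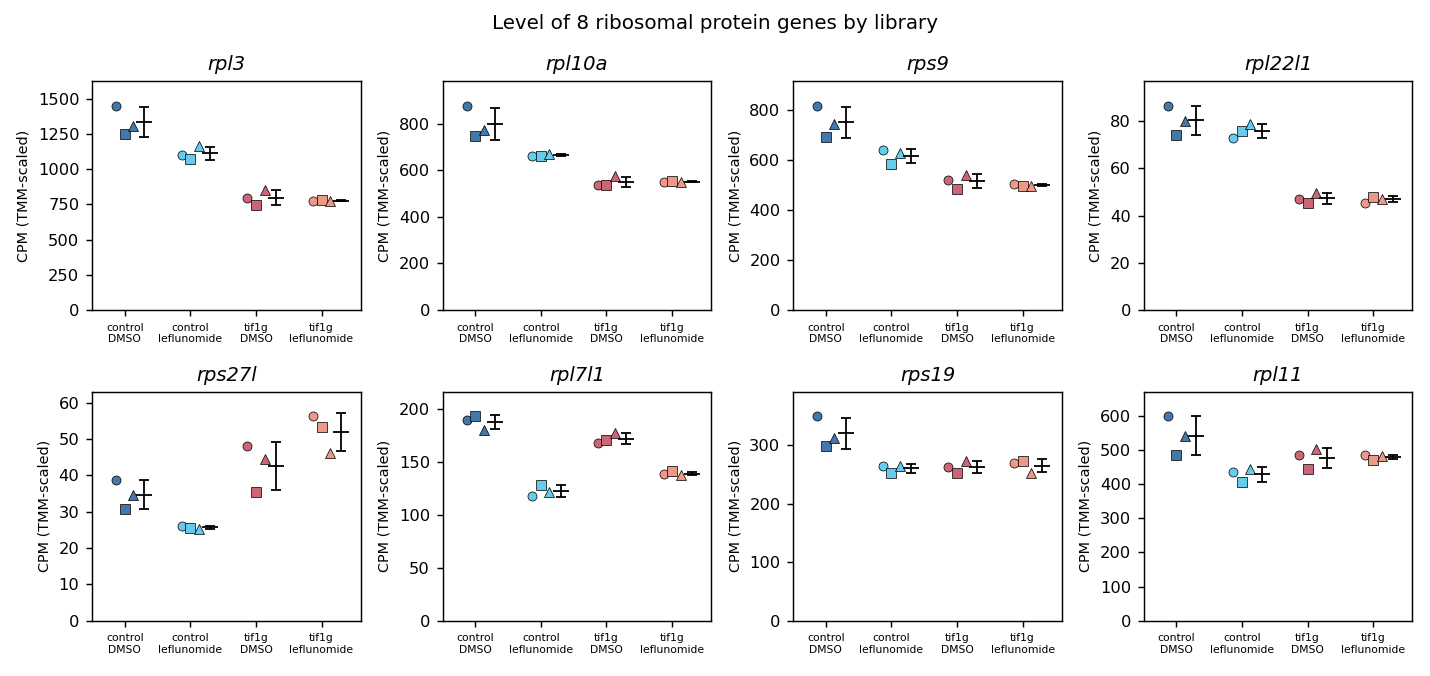
Levels (TMM-scaled CPM) of 8 ribosomal protein genes in 12 libraries, with the mean ± SD of 3 libraries a group; y axes start at 0. The transcripts rpl3, rpl10a, rps9 and rpl22l1 are lower in all 6 tif1g libraries than in all 6 control libraries, and rps19 and rpl11 follow the bulk of the set.

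To set the genes against one another rather than against the transcriptome, each library was also scaled to its summed ribosomal protein count, a choice made after the data were seen. By this measure 7 genes of the set fell and 7 rose in the knockdown in DMSO, and 4 fell and 6 rose in leflunomide. Of all genes tested, 6.3% fell and 32.2% rose in DMSO, and 10.1% fell and 7.93% rose in leflunomide. Only the fallers in DMSO were a larger share of the set than of all genes, and only slightly. The other shares did not exceed those of all genes. This scaling centres the set itself and moves all other genes with the summed count. On this scale, here and below, the shares of all genes are therefore no background for the set, and no conclusion is drawn from them. Shared by both knockdown comparisons were the falls of rpl22l1, rpl3, rps9 and rpl10a and 4 rises, those of rps27l, rpl30 and rps25 among them. The relative changes in DMSO were -0.51 ± 0.07 for rpl22l1, -0.49 ± 0.06 for rpl3, -0.29 ± 0.06 for rps9 and -0.28 ± 0.06 for rpl10a, against 0.55 ± 0.09 for rps27l, 0.18 ± 0.07 for rpl30 and 0.17 ± 0.06 for rps25. Leaving out 1 library gave 3 to 9 risers in DMSO and 1 to 8 in leflunomide, the lowest without replicate 3 of control DMSO or replicate 2 of tif1g DMSO, and without replicate 1 of control leflunomide. In leflunomide rps27l stood 1.01 ± 0.09 higher and rpl22l1 0.70 ± 0.07 lower on the log2 scale. Over 80 genes, the relative changes of the knockdown in DMSO and in leflunomide, from separate libraries, had Pearson's r of 0.892 and Spearman's rho of 0.860. Genes of 1 library share its depth and scaling, so this is a description. Between the 2 leflunomide comparisons, which also share no library, the same values were 0.269 and 0.200 on this scale.

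**Figure D4:**
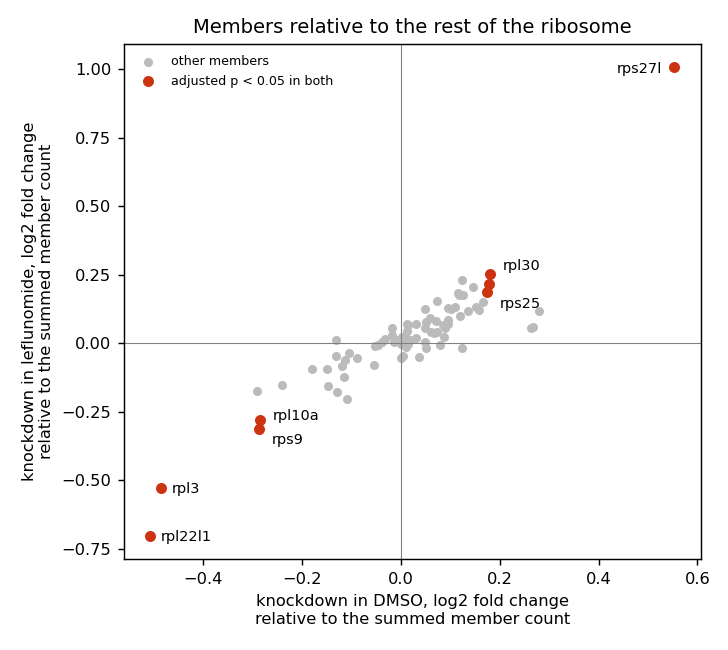
Log2 fold changes of 80 ribosomal protein genes relative to their summed count, for the knockdown in DMSO (x axis) and in leflunomide (y axis), comparisons with no shared library; red points passed at adjusted p under 0.05 in both, and not every one is labelled. The 4 genes at lower left are rpl22l1, rpl3, rps9 and rpl10a, and rps27l stands alone at upper right.

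With leflunomide, few genes were called for a change in proportion. Scaled to the summed count, 1 gene fell and 1 rose in control embryos, rpl7l1 at -0.35 ± 0.08 (adjusted p = 0.0032, edgeR) and rps27.2 at 0.29 ± 0.07 (adjusted p = 0.0068), where 1.07% of all genes tested fell and 27.3% rose. The product of rpl7l1 is related to the yeast protein Rlp7, an assembly factor that leaves before the large subunit is complete. Its TMM-scaled level was 189, 193 and 180 CPM in DMSO and 117, 128 and 121 in leflunomide with the control morpholino. With the tif1g morpholino it stood at 167, 171 and 177 in DMSO and 138, 141 and 138 in leflunomide. The leflunomide and DMSO libraries did not overlap in either kind of embryo. With leflunomide it fell by 0.62 ± 0.05 in control embryos (adjusted p = 2.46e-06, edgeR). The fall in tif1g embryos was 0.31 ± 0.05 (adjusted p = 0.0225), and this call was lost whenever 1 library of those groups was left out.

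Within some paralog families the ratio of counts differed between tif1g and control libraries. The families were compared after their values had been seen, so the ratios are a description with no test, and reads of near-identical copies may be split between them in the counting. The ratio of rpl22l1 to rpl22 counts was 0.478 ± 0.0188 in DMSO and 0.558 ± 0.0189 in leflunomide with the control morpholino, and 0.324 ± 0.0258 and 0.322 ± 0.0153 with the tif1g morpholino (SD, n = 3). The ratio of rps27l to rps27.1 was 0.123 ± 0.0118, 0.103 ± 0.00392, 0.194 ± 0.0234 and 0.238 ± 0.0179 in the same order. In both families the 6 tif1g and the 6 control libraries did not overlap, and the same held for 5 of the 7 pairs given. How often ratios of other gene pairs separate in this way was not computed, so this count is no result about paralogs. The pairs of rps27l and of rps27.2 both use the counts of rps27.1, which fell in both knockdown comparisons, so they are not separate cases.

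The other 3 pairs without overlap are given in the same order of groups. The ratio of rps27.2 to rps27.1 was 0.832 ± 0.0119, 0.949 ± 0.0158, 1.08 ± 0.0413 and 1.14 ± 0.0183. That of rplp2 to rplp2l was 0.316 ± 0.0163, 0.366 ± 0.0117, 0.420 ± 0.036 and 0.394 ± 0.00828, and in leflunomide the libraries ran from 0.385 to 0.401 in tif1g and from 0.353 to 0.376 in control embryos. For rps26, the ratio of ENSDARG00000037071 to ENSDARG00000030408 was 0.805 ± 0.0215, 0.816 ± 0.042, 0.607 ± 0.0365 and 0.635 ± 0.0242. The tif1g and control libraries overlapped for the rpl5 pair and for rpl7l1 with rpl7. Within control embryos, leflunomide also set some ratios apart from DMSO without overlap. The ratio was higher in leflunomide for rps27.2 to rps27.1, rpl22l1 to rpl22 and rplp2 to rplp2l. It was lower for rps27l to rps27.1 and for ENSDARG00000015862 to ENSDARG00000020197 of the rpl5 pair. So the ratios did not differ by the knockdown alone.

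**Figure D5:**
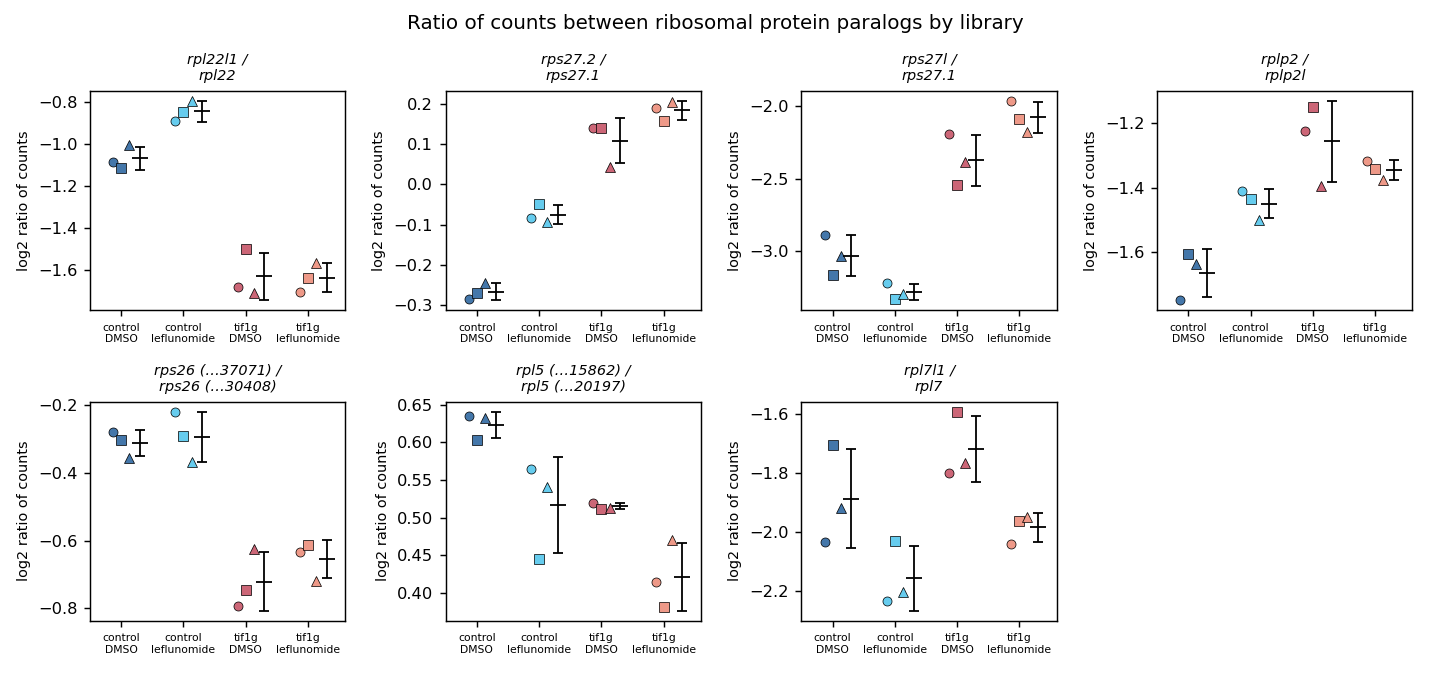
Log2 ratio of counts between 7 pairs of ribosomal protein paralogs in 12 libraries, with the mean ± SD of 3 libraries a group; identifiers are shortened to their last digits. In 5 pairs the 6 tif1g libraries lie apart from the 6 control libraries, with rpl22l1 lower against rpl22 and rps27l higher against rps27.1.

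Genes outside the rule that serve the same machinery were counted beside the set. The shares of all genes tested are those given above, 13.1% lower and 8.87% higher for leflunomide in control embryos, 17.2% and 15.6% for the knockdown in DMSO, and 11.8% and 12% for the knockdown in leflunomide. With the replicate number as a block they were 17.8% and 13.5%, 22.3% and 19.9%, and 16.7% and 17.0%. Of 4 further genes for ribosomal or ribosome-bound proteins, such as rack1, 4 fell with leflunomide in control embryos and 2 fell in the knockdown in DMSO, where 4 fell with the block. Of 35 tested 5′TOP mRNAs of translation factors and related genes, 18 fell and 1 rose with leflunomide in control embryos, where 2 rose with the block. In the knockdown in DMSO 15 fell and 6 rose, and these risers, 17.1% of the list, were near the share of all genes. The elongation factor subunit gene eef1g fell by 0.93 ± 0.07 in DMSO (adjusted p = 1.48e-08, edgeR) and the helicase gene eif4a1a by 0.55 ± 0.05. Called or not, the log2 changes of the 35 mRNAs there ran from -1.16 to 1.42. The summed level of these mRNAs was 30662, 25431, 26172 and 24670 CPM in control DMSO, control leflunomide, tif1g DMSO and tif1g leflunomide. Among 34 genes of TOP control (mTOR, Larp, Myc and TIA proteins), 13 rose and 3 fell in the knockdown in DMSO (5 fell with the block), and tial1 rose by 0.77 ± 0.06 while tia1 fell by 0.48 ± 0.05.

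Ribosome assembly factors and dedicated chaperones fell in 25 of 31 cases with leflunomide in control embryos, with none rising. The assembly factor wdr12 fell by 0.52 ± 0.05 (adjusted p = 1.71e-05, edgeR) and the snoRNP protein gene nop58 by 0.44 ± 0.05. Leflunomide in tif1g embryos lowered 3 of the 31, or 9.68%, and raised 0, where 0.425% of all genes tested fell. The median there was -0.19 against 0.01 over all genes, and 30 of 31 changes were negative, unlike in the ribosomal protein set. With the block 16 fell there, a count for which the share of all genes is not given. In the knockdown in DMSO 4 rose and 8 fell, or 12.9% and 25.8%, and 7 rose and 12 fell with the block. In the knockdown in leflunomide 12 rose and 2 fell, or 38.7% and 6.45%. The endonuclease gene nob1, whose product trims the end of 18S RNA, rose by 0.91 ± 0.07 in DMSO and by 1.25 ± 0.07 in leflunomide, and the GTPase gene gnl2, of large subunit export, fell by 0.78 ± 0.06 and 0.52 ± 0.06.

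Early p53 targets were counted because of rps27l, which is left out of the following counts. Of the other 15, 8 rose and 2 fell in the knockdown in DMSO, 10 rose and 0 fell in leflunomide, and 0 rose and 3 fell with leflunomide in control embryos. With the block 1 fell in the knockdown in leflunomide and 5 with leflunomide in control embryos, against 16.7% and 17.8% of all genes tested. The 2 fallers in the knockdown in DMSO were sesn1, by 0.40 ± 0.10, and pmaip1, by 0.57 ± 0.14 (adjusted p = 0.00476 and 0.00327, edgeR). The pro-apoptotic gene bbc3 rose by 1.70 ± 0.12 in DMSO and 2.00 ± 0.12 in leflunomide (adjusted p = 2.99e-08 and 5.84e-09, edgeR), and, of the pair with the symbol of the growth arrest gene gadd45a, ENSDARG00000043581 rose by 1.78 ± 0.19 in DMSO while ENSDARG00000104571 gave -0.20 ± 0.25 (adjusted p = 0.59). Of 28 tested genes mutated in Diamond-Blackfan anaemia, all members of the set, 20 fell in the knockdown in DMSO and 25 with leflunomide in control embryos. These were 71.4% and 89.3% of the list, against 17.2% and 13.1% of all genes tested. Both were near the shares of the whole set, so the list did not stand apart from the other members.

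Marker sums of other tissues were also highest in control DMSO. Enveloping layer markers, the embryo's outer sheet, summed on average to 20637, 17896, 17712 and 17992 CPM in control DMSO, control leflunomide, tif1g DMSO and tif1g leflunomide, and yolk syncytial layer markers to 10210, 8031, 7235 and 7033 CPM. The control DMSO libraries held 20076 to 21751 CPM of the first and 9745 to 10537 of the second, above the 17211 to 18428 and 6633 to 8477 of the other 9 libraries. Of the 24 and 27 tested markers, 13 and 12 fell and 6 and 3 rose in the knockdown in DMSO. These were 54.2% and 44.4% lower and 25.0% and 11.1% higher, against 17.2% and 15.6% of all genes tested. The yolk syncytial layer risers thus did not exceed the background. With leflunomide in control embryos 7 and 18 fell and 1 and 0 rose, and 11 and 20 fell with the block. Without the block these were 29.2% and 66.7% lower and 4.17% and 0.0% higher, against 13.1% and 8.87% of all genes tested. With the block 17.8% of all genes tested fell. In the knockdown in leflunomide 7 and 7 fell and 6 and 8 rose, and 10 and 11 rose with the block. In leflunomide the yolk syncytial layer sum was 6633 to 7251 CPM in tif1g and 7605 to 8477 in control embryos. These did not overlap. The median log2 change of the 27 tested markers in that comparison was 0.10, with 16 positive and 11 negative, so the lower sum does not describe the markers as a group. None of the listed markers was at 0 in all libraries. Mitochondrial mRNAs summed to 8563, 9637, 10550 and 10328 CPM and the nuclear RNA malat1 stood at 3174, 5193, 4172 and 4931 CPM, both lowest on average in control DMSO, and the 24 maternal transcripts summed to 1478, 1325, 1567 and 1470 CPM. The part of these in the falls of ribosomal protein genes was not tested.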

How the data were processed

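The authors deposited 1 table of unnormalised counts over 32520 Ensembl genes. The submitters' processing notes name FastQC, cutadapt, TopHat2 2.0.11, HTSeq, Cufflinks 2.2.1 and build GRCz11. The sources used here do not say whether counting used strand. Genes were kept by filterByExpr (edgeR 4.0.16, R 4.3.3), and 21400 passed. Counts were scaled with TMM factors and fitted with the robust quasi-likelihood model over 4 group means of 12 libraries (biological coefficient of variation 0.113). Changes are log2 fold changes with standard errors, and p-values were adjusted by Benjamini-Hochberg over 21400 genes and called under 0.05. For edgeR each standard error was derived as the absolute change divided by the square root of the quasi-likelihood F statistic. DESeq2 1.42.0 was an alternative. The fit was tested on simulated data.

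Total counts of 27574593 to 32088082 leave counting error a small part of the spread between libraries. Replicate numbers pair the samples, as the data show: over 15363 genes, deviations of same-numbered libraries from their group means correlated at 0.271 to 0.494 in all 18 pairs, and others at -0.332 to -0.0244. Deviations from a group mean cancel within the group. The other pairs are therefore negative on average once same-numbered pairs are positive, and are no separate sign of pairing. The series text says that clutches were divided between treatments, but the labels do not say that a number is a clutch, so p-values measure the spread between these pools.

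The ribosomal protein genes and the lists were chosen with earlier results of these data known. Named genes were rpl3, rpl5, rpl11, rpl22, rpl22l1, rplp0, rps6, rps19 and the rps27 paralogs, with the 4 smallest p in each direction a comparison, and up to 4 of each list. Levels per coding length were not computed, since no lengths were used here. No sequence or coordinate was used here. Single values of some genes of the set and lists are not reported here.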

Additional observations from a re-analysis of the deposited data

Results flagged for a closer look

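The interaction of knockdown and leflunomide, 0 genes without the block, passed for 67 of the 83 ribosomal protein genes once the replicate number was a block (edgeR's quasi-likelihood test). All 67 were higher, by 0.20 to 0.72 on the log2 scale. With leflunomide in tif1g embryos, rps27l, which had the difference of 0.72, rose by 0.29 ± 0.07 with the block (adjusted p = 0.0144), and rpl7l1, also among the 67, fell by 0.31 ± 0.05 without it. Over all genes tested 3.37% passed as higher with the block. It comes from a difference tested between tif1g and control embryos, and the medians by replicate number were -0.42, -0.21 and -0.22 for leflunomide in control embryos and -0.02, 0.10 and -0.11 in tif1g embryos.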

How the results depend on the processing

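The falls of ribosomal protein genes kept their direction under every setting tried for the knockdown in DMSO and for leflunomide in control embryos, and their number did not. With library totals the medians were -0.15 for the knockdown in DMSO, -0.15 for leflunomide in control embryos, where 30 genes fell, and 0.19 for the interaction. With a minimum of 10 CPM in 3 libraries the median for leflunomide in control embryos was -0.20. The rise of rps27l in DMSO was lost with no filter on low counts and with only the compared groups in the fit, which left 0 risers. For the knockdown in leflunomide, the fit of only the compared groups gave 16 risers. The share of all genes called in that fit is not given, so a gain of calls in general cannot be told from a change of the set. DESeq2 called 6 genes in the interaction, and 162 of 21400 over all genes. The replicate block gave 67 there, 18 risers for the knockdown in leflunomide and 1 riser for leflunomide in tif1g embryos. Relative to the summed ribosomal protein count, the block gave 2 risers for leflunomide in control embryos, 1 faller and 1 riser in tif1g embryos and 1 in the interaction. The shares of all genes for these counts are not given. The block moved no other count of ribosomal protein genes called in a comparison by over 1.5 times. Where it moved a list count given above by more, the count with the block stands beside it. List counts not given above moved too. In the interaction, genes called higher went from 0 to 20 for the Diamond-Blackfan anaemia list and from 0 to 10 for yolk syncytial layer markers. Over all genes tested, 3.37% were called higher there with the block. Among 98 values of named genes the block made 17 pass that had not, 12 of them in the interaction, and 0 fail. Without the 3 genes with the most counts (rplp0, rps2 and rpl4) the shares were 3.19%, 2.87%, 2.79% and 2.86% for control DMSO, control leflunomide, tif1g DMSO and tif1g leflunomide, and a TMM-scaled total gave 3.15% for control leflunomide.

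Leaving out a library or a replicate number gave 27 to 68 fallers and 0 to 1 risers for the knockdown in DMSO (median -0.27 to -0.16), 3 to 15 risers for the knockdown in leflunomide, 27 to 76 fallers for leflunomide in control embryos (median -0.34 to -0.21), 0 to 1 fallers in tif1g embryos and a median of 0.19 to 0.35 for the interaction. Relative to the summed count it gave 3 to 9 risers for the knockdown in DMSO, 1 to 8 in leflunomide, and 0 to 1 for leflunomide in control embryos and for the interaction. For single named genes, 1991 values kept their side of the threshold, 111 no longer passed, 29 newly passed and 0 reversed. The cause of these shifts was not tested. For fits with libraries left out, here and above, the share of all genes called is not given. Levels per coding length were not run.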
